A study of Mus musculus with 11 samples.

Results

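The genes described are those of the mitochondrial ribosomal proteins in mouse alveolar macrophages. They were defined by name, as every transcript cluster (the array's unit for one gene) whose symbol is Mrpl or Mrps followed by a number. The choice of this family was made with earlier results of these data known. This gave 76 members, 48 named Mrpl (large subunit) and 28 named Mrps (small subunit), of 19505 gene symbols on the array. Each member had 1 cluster, and 74 of the 76 were among the 12143 genes bright enough to be tested.

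The study followed alveolar macrophages through a mouse model of macrophage activation syndrome, a hyperinflammatory state, on 11 Affymetrix arrays. All mice were female C57BL/6J, bought at 6 weeks of age, and received 5 injections over 10 days. The control group was injected with PBS and lavaged on day 10 (n = 4). The acute group was injected with CpG 1826, an oligonucleotide agonist of Toll-like receptor TLR9, and lavaged on day 10 (n = 3). The resolution group received the same CpG injections and was lavaged on day 30 (n = 4). No PBS group at day 30 was among the samples, so in the resolution group the earlier CpG and the later day cannot be told apart. Macrophages were taken from lung lavage fluid by adherence to plastic, without a sort for a surface marker, and no sample carries a genetic change in its labels. The sample titles call the arrays of a group biological replicates, but the sources used here do not say whether a sample is a single mouse or a pool. The p-values therefore measure the spread between samples, which is that between mice only if each sample is a single mouse.

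The mitochondrial ribosome makes the few proteins encoded by mitochondrial DNA, all of them membrane subunits of the respiratory chain and ATP synthase. Its RNAs are transcribed inside the organelle, but every one of its proteins is encoded in the nucleus, made in the cytosol and imported. Many of these proteins have a bacterial counterpart, and the others are found only in mitochondria.

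Promoters of nuclear genes for mitochondrial proteins are known for short binding words of NRF1, of ETS factors such as GABP, and of YY1. RefSeq promoter windows (build GRCm38.p6) of 300 bases, 250 before and 50 after a start, were found for 67 of the 76 members, in 73 windows. Both strands were searched for the NRF1 word, GCGCA followed by any base and then GCGC. The NRF1 word was in 17.8% of member windows, against 4.6% of all 32851 windows and 6.38% of the 21263 windows of protein-coding genes. For the ETS word, CCGGAAG, these shares were 34.2%, 8.86% and 11.6%, and for the YY1 word, AAGATGGC, 16.4%, 2.75% and 3.05%. At least 1 of these 3 words, which were searched in the same way, stood in 57.5% of member windows, against 14.7% of all windows and 18.9% of those of protein-coding genes. The E-box, CACGTG, was in 9.59% of member windows against 7.15% of all, and the TATA word, TATAAA, in 6.85% against 13.6%. Of the 12 member windows with the YY1 word, 8 held it only at or after the start, whereas 17 of the 25 with the ETS word and 10 of the 13 with the NRF1 word held it before the start. A word match describes these letters and says nothing about binding.

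**Figure D1:**
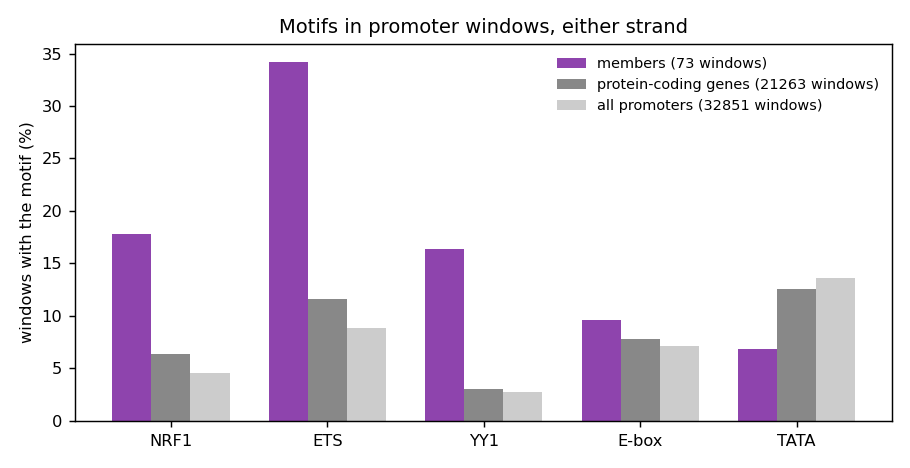
Share of promoter windows (%) that hold each word on either strand, for the 73 windows of the mitochondrial ribosomal protein genes, for windows of protein-coding genes and for all windows. The member bars for NRF1 (17.8%), ETS (34.2%) and YY1 (16.4%) stand above both other bars, and the member bar for TATA (6.85%) stands below them.

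The sequences below are shown because these members passed the expression test or share their promoter with another member, and they show where such words lie. They were picked to show words: of 8 members past the threshold with a stretch of this kind, 3 held a word, and Mrps12, Mrpl1, Mrpl49 and Mrpl42, not printed, held none. In the whole 300-base window, 8 of 9 members past the threshold held one, as did 42 of all 67 members with a window (62.7%). Each runs 5′ to 3′ on the gene's own strand and ends at the base before the start. It covers 250 bases, or fewer where another RefSeq gene begins, and capitals mark matches to the NRF1, ETS or YY1 word, none of which overlapped another.
Mrpl9: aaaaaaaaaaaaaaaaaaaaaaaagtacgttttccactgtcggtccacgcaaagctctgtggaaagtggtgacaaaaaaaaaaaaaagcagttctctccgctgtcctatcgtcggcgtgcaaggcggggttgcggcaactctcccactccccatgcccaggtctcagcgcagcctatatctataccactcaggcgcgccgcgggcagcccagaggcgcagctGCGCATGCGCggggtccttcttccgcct
Mrpl32: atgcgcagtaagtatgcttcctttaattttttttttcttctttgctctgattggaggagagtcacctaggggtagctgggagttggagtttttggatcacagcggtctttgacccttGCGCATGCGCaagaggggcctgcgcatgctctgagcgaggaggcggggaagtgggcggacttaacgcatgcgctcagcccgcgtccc
Mrps22: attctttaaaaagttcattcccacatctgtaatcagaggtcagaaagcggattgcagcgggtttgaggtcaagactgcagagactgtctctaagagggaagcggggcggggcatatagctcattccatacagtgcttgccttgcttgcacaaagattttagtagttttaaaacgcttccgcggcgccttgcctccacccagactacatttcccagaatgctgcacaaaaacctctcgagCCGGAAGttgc
Mrps18b: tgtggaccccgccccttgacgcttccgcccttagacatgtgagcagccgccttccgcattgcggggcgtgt
Mrpl46: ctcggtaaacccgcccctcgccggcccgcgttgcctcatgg
The Mrpl9 sequence (chr3:94443086-94443335, plus strand) has an NRF1 word that begins 28 bases before the start. The Mrpl32 sequence (chr13:14613038-14613241, minus strand) has the same word 87 bases before the start and stops after 204 bases, where the proteasome gene Psma2 begins. The Mrps22 sequence (chr9:98601680-98601929, minus strand) has an ETS word 11 bases before the start. The Mrps18b sequence (chr17:35916441-35916511, minus strand) stops after 71 bases at Ppp1r10 and holds none of the 3 words, although its 300-base window has an ETS word. The Mrpl46 sequence (chr7:78783090-78783130, minus strand) is the whole of the 41 bases between Mrpl46 and Mrps11, a pair of members read in opposite directions.

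Of the 67 members with a window, 24 (35.8%) had a protein-coding gene starting within 1000 bases on the other strand, head to head, against 1483 of 17492 protein-coding genes (8.48%). Examples were Mrps12 with the seryl-tRNA synthetase gene Sars2 (147 bases between the starts), Mrpl49 with Fau (192 bases) and Mrpl32 with Psma2 (205 bases).

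The deposited values were linear array intensities, given below as log2(intensity + 1), and levels are not compared between genes because each has its own probes. A value counted as above background when it passed the 90th percentile of the array's 23 antigenomic control probe sets, 6.12 to 6.24 on this scale. On that measure 70 members were above background on all 11 arrays. Mrps22 passed on 9 arrays, Mrps15 on 8, and Mrpl54 and Mrps5 on 3 each. Mrpl10 and Mrpl43 passed on none and were not tested. As a check of the labelled cell type, all 13 alveolar macrophage markers found on the array were above background on all 11 arrays. Array medians ran from 51.4 to 57.0 intensity units, and arrays correlated at 0.988 to 0.995 within groups and 0.975 to 0.993 between them. One array, control 4, stood apart on the third principal component, which held 10.2% of the variance.

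Markers of other cells moved with the groups. The counts here are of genes past limma's adjusted p threshold of 0.05. Of all genes tested, 0.239% passed it in acute against control, 18.6% in resolution against control and 14.5% in resolution against acute. Of 12 lung epithelial markers tested, 4 (among them Scgb1a1 and Bpifa1) rose in acute against control, 4 fell in resolution against control and 9 fell in resolution against acute. The summed intensity of the 14 on the array was 4884 to 9018 in control, 17860.5 to 37808 in acute and 2332 to 4072 in resolution, with Sftpb and Krt18 below background on every array. Of 14 immediate early and handling genes tested, 7 rose and 2 fell in resolution against control, with summed intensities of 226094 to 286749 in resolution, 176033 to 221465 in control and 176780 to 224462 in acute. Of the 13 alveolar macrophage markers, 4 rose and 1 fell in resolution against control and 3 rose and 1 fell against acute. Of 5 T cell markers tested, all lower on average in resolution than in either other group, 1 passed in each resolution comparison (Cd3d). Summed intensities over the 7 on the array were 1562 on control 4 and 388 to 647 on the other controls. They were 414 to 671 in acute and 302 to 439 in resolution. Of 3 neutrophil markers tested, 1 rose past the threshold in each resolution comparison, and 2 had differences below 0. Of 4 monocyte markers tested, 1 rose in each resolution comparison, and 2 had differences below 0. In resolution against acute, 1 of 2 NK and cytotoxic lymphocyte markers and 1 of 3 dendritic cell markers fell. Single arrays stood out as well. The 2 red cell markers on the array, Alas2 and Slc4a1, summed to 37032 on acute 1, against 255 and 736 on the other acute arrays and 202 to 299 in control, with a median difference of 2.44 in acute against control and neither past the threshold. Neutrophil markers summed to 6197 on control 4, against 1323 to 2190 on the other controls. The part of all these markers in the results for the mitochondrial ribosome was not tested. In RNA from many cells, fewer cells of a type and less RNA per cell cannot be told apart.

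The first comparison asked what the acute phase did to these genes. None of the 74 members tested passed limma's adjusted p threshold of 0.05 in acute against control, where 0.239% of all 12143 genes did (0.189% higher and 0.0494% lower). At an unadjusted p below 0.05 there were 3 members, or 4.05%, against 9.05% of all genes. The median difference over the members was 0.09 on the log2 scale, against -0.00 over all genes, and 50 of the 74 were above 0. That median was 0.134 with quantile normalization, 0.17 without acute 1, 0.02 without acute 2, and 0.207 with control 4, acute 1 and resolution 2 left out together. Differences ran from -0.44 for Mrps22 to 0.43 for Mrps12. The 95% interval of the difference lay within 2-fold for 73 members (98.6%), against 94.4% of all genes, so a change of that size lay outside the interval for all of them but Mrps12, whose interval ran from -0.15 to 1.01.

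In acute against control, all acute arrays lay above all control arrays for 7 members (9.46%) and below them for none. Of all 12143 genes, 572 lay above and 655 below in this way, 10.1% in either direction. The 7 members were Mrpl20, Mrpl32, Mrpl33, Mrpl34, Mrpl40, Mrpl48 and Mrps17. For Mrpl32, a large subunit protein whose maturation is cut by the m-AAA protease, the control arrays read 8.94, 9.10, 8.84 and 9.06 and the acute arrays 9.42, 9.34 and 9.23. The groups were apart, yet the difference of 0.35 ± 0.14 (SE, n = 4 and 3) had a limma adjusted p of 0.471. For Mrps22, a small subunit protein without a bacterial counterpart, the control arrays read 6.73, 6.96, 6.21 and 6.75 and the acute arrays 6.42, 6.25 and 5.99. One control array lay within the acute range, and the difference of -0.44 ± 0.17 had a limma adjusted p of 0.456.

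**Figure D2:**
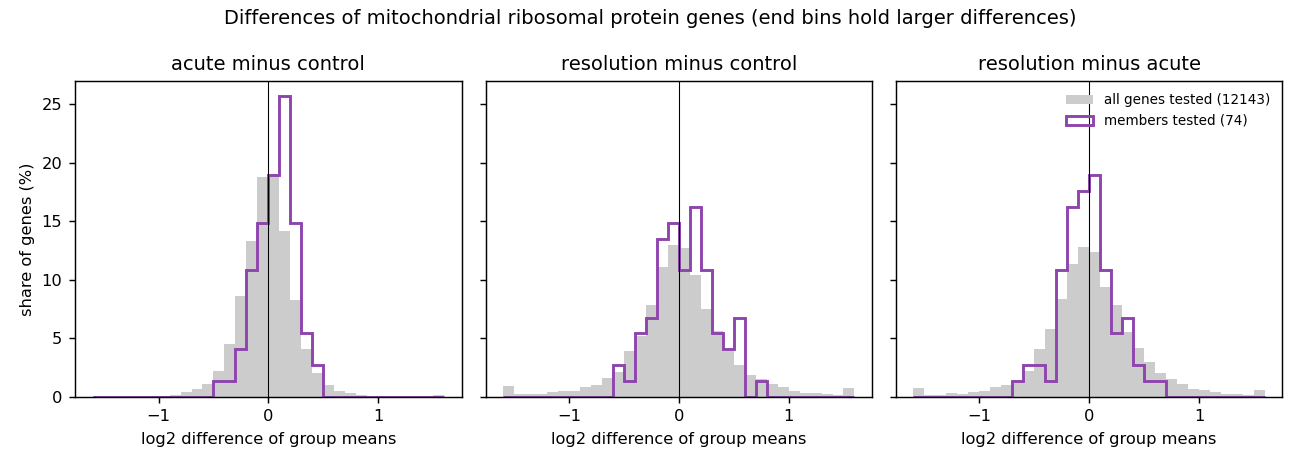
Share of genes (%) by log2 difference of group means for the 74 tested members (outline) and all 12143 genes tested (filled), in the 3 comparisons. The members lie within -0.62 and 0.78 in all 3 panels, while all genes spread further, with the largest differences gathered in the end bins.

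In resolution against control, 6 of the 74 members passed the threshold, 4 higher and 2 lower. This is 8.11% of the members, where 18.6% of all genes passed (9.6% higher and 9% lower). Mrps12, Mrpl42, Mrpl33 and Mrpl49 rose by 1.35-fold to 1.71-fold, and Mrpl9 and Mrps18b fell. With arrays scaled to a common median, 0 members were higher and 2 lower, and with quantile normalization 5 were higher and 4 lower. The median difference over the members was 0.05, against 0.00 over all genes, and turned to -0.0041 with quantile normalization and -0.023 without resolution 2. The range was -0.56 to 0.78. The 95% interval lay within 2-fold for 73 members, all but Mrps12 (0.24 to 1.31), against 85.5% of all genes. At an unadjusted p below 0.05 there were 17 members (23%), against 31.3% of all genes. Resolution arrays lay wholly above the control arrays for 7 members and wholly below for 3, where 22.7% of all genes had groups apart in either direction.

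Mrps12 encodes the counterpart of bacterial S12, a protein of the decoding centre that bears on the accuracy of translation. Its control arrays read 11.45, 11.45, 10.95 and 11.59, its acute arrays 11.39, 12.01 and 11.96, and its resolution arrays 11.91, 12.93, 11.92 and 11.77. All resolution arrays were above all control arrays, and resolution 2 stood above the other 3. The difference of 0.78 ± 0.25 (SE, n = 4 and 4), or 1.71-fold, had a limma adjusted p of 0.0459. It lost the threshold in 12 of the 22 alternatives, including those without any 1 control array, without acute 2 or 3, and without resolution 1, 2 or 3, where the adjusted p reached at most 0.122. Its head-to-head neighbour Sars2, above background on 6 arrays, differed by -0.13 (adjusted p = 0.549), turning to 0.013 with control 4, acute 1 and resolution 2 left out together.

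Mrpl42 encodes a protein found only in mitochondrial ribosomes. It read 11.92, 11.99, 11.74 and 12.18 in control, 11.87, 12.35 and 11.97 in acute, and 12.20, 12.84, 12.52 and 12.47 in resolution. The resolution arrays were above all control arrays, the lowest by a narrow margin, and the acute arrays overlapped both groups. The difference of resolution from control was 0.55 ± 0.16, or 1.47-fold, with a limma adjusted p of 0.0298. The call was lost in 7 of 22 alternatives, with median scaling, without control 1, 2 or 3 and without resolution 2, 3 or 4.

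Mrpl33 encodes the small zinc-ribbon protein L33. It read 14.22, 14.22, 14.25 and 14.22 in control, 14.26, 14.57 and 14.57 in acute, and 14.47, 15.09, 14.68 and 14.57 in resolution. The control arrays were nearly equal, and every acute and resolution array was above them. The difference of 0.47 ± 0.14 from control to resolution, or 1.39-fold, had a limma adjusted p of 0.0327. The call was lost in 8 of 22 alternatives. These were median scaling, any 1 control array left out, resolution 2 or 3 left out, and control 4, acute 1 and resolution 2 left out together.

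Mrpl49 is specific to mitochondria and read 11.19, 10.97, 10.95 and 10.76 in control, 10.97, 11.27 and 11.33 in acute, and 11.33, 11.46, 11.60 and 11.20 in resolution. The lowest resolution array and the highest control array were almost equal. The difference of 0.43 ± 0.13, or 1.35-fold, had a limma adjusted p of 0.0437 and was lost in 12 of 22 alternatives, with control 2, 3 or 4, acute 2 or 3, or resolution 1, 2 or 3 left out. Fau, its head-to-head neighbour, which encodes a precursor of the cytosolic ribosomal protein S30, differed by 0.09 (adjusted p = 0.567).

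Mrps18b is 1 of 3 mammalian relatives of bacterial S18, and its call was lost in the fewest alternatives of all members past the threshold. Its control arrays read 7.96, 7.73, 8.20 and 7.93, its acute arrays 8.01, 7.68 and 7.81, and its resolution arrays 7.54, 7.27, 7.29 and 7.58. The resolution arrays were below every control and acute array, and the acute arrays overlapped the controls. The difference of resolution from control was -0.54 ± 0.13, 1.45-fold lower, with a limma adjusted p of 0.0139. The call was lost in 1 of 22 alternatives, with control 4, acute 1 and resolution 2 left out together (adjusted p = 0.0545). Against acute the difference was -0.41 ± 0.14 with a limma adjusted p of 0.0764. The other relatives, Mrps18a (-0.24 ± 0.13, adjusted p = 0.227 by limma), whose protein sits in the large subunit, and Mrps18c (0.06 ± 0.13, adjusted p = 0.794), did not pass between resolution and control.

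Mrpl9, the counterpart of bacterial L9, read 8.08, 8.05, 8.27 and 8.62 in control, 8.23, 7.68 and 7.68 in acute, and 7.73, 7.79, 7.75 and 7.52 in resolution. All resolution arrays were below all control arrays, while acute 1 lay among the controls and the other acute arrays among the resolution arrays. The difference from control was -0.56 ± 0.16 in resolution, 1.47-fold lower, with a limma adjusted p of 0.0299. The call was lost in 6 of 22 alternatives, with the replicate number as a block, without control 3 or 4 and without resolution 1, 3 or 4. In acute the difference was -0.39 ± 0.17, with a limma adjusted p of 0.526.

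**Figure D3:**
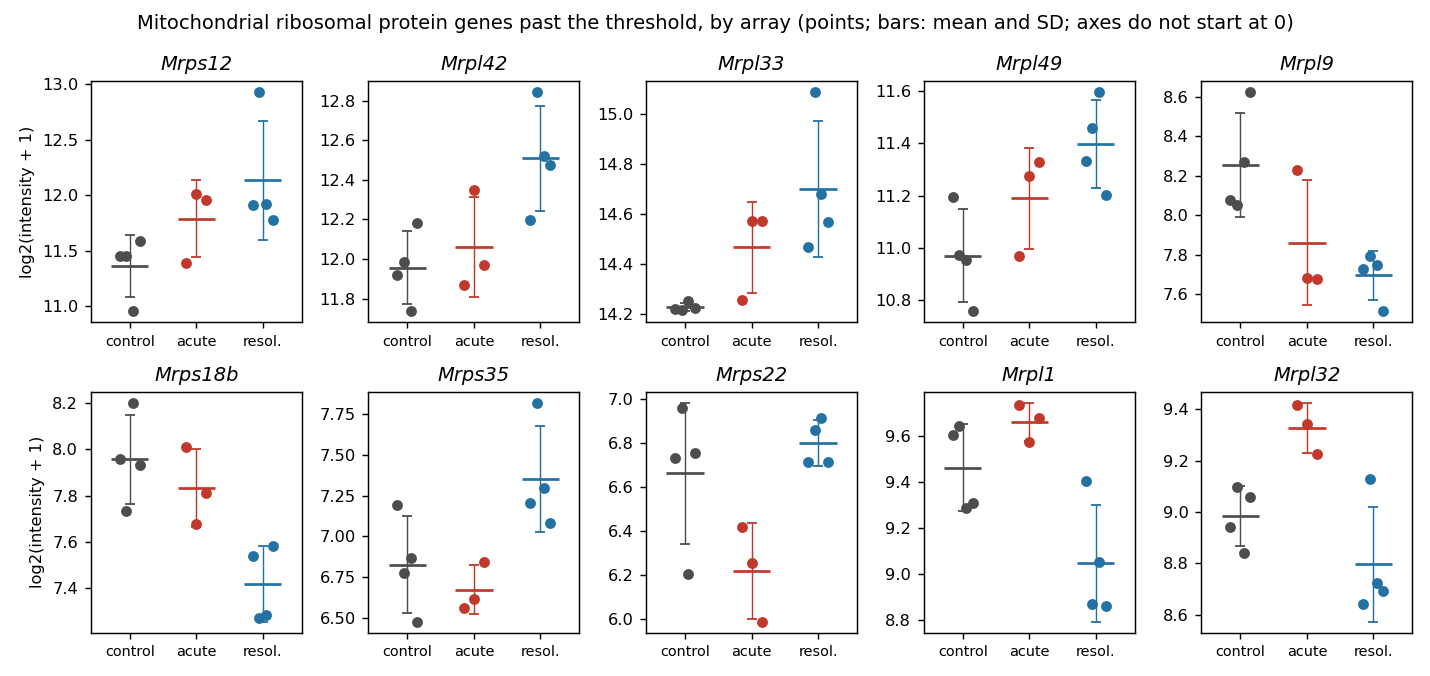
log2(intensity + 1) on each array (points) with group mean and SD (bars) for the 10 members past the threshold in at least 1 comparison, in control (n = 4), acute (n = 3) and resolution (n = 4). Mrps18b shows all 4 resolution arrays, 7.27 to 7.58, below every other array, and Mrps12 shows the single high resolution array at 12.93.

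Without control 4, 3 members passed between resolution and control in place of 6, of which 2 were shared (Mrpl42 and Mrps18b) and Mrps15 was gained.

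The members nearest the threshold on its other side, between resolution and control, were Mrps15 (0.55, adjusted p = 0.0527 by limma), Mrps16 (0.50, 0.0541) and Mrps17 (0.29, 0.0553). Mrps15 passed without control 4 or resolution 3, Mrps16 without resolution 4, and all 3 with the filter at the antigenomic background. Mrps17, the counterpart of S17, had the smallest spread within groups of all members, a pooled SD of 0.07, and was singled out after its values were seen. Its control arrays ran from 11.46 to 11.67, its acute arrays from 11.68 to 11.73 and its resolution arrays from 11.78 to 11.92. No pair of groups overlapped, with control lowest and resolution highest.

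In resolution against acute, 4 of the 74 members passed, 2 higher and 2 lower. This is 5.41%, where 14.5% of all genes passed (7.77% higher and 6.69% lower). Mrps35 and Mrps22, both small subunit proteins, rose, and Mrpl1 and Mrpl32, both of the large subunit, fell. With arrays scaled to a common median, 0 members were higher and 3 lower, and with quantile normalization 0 were higher and 4 lower. The median difference was -0.02. It turned to 0.066 without resolution 4, and was -0.141 with quantile normalization and -0.153 with control 4, acute 1 and resolution 2 left out together. The 95% interval lay within 2-fold for 73 members, all but Mrps35 (0.25 to 1.10), against 84.3% of all genes. At an unadjusted p below 0.05 there were 11 members (14.9%), against 28.8% of all genes. Resolution arrays lay wholly above the acute arrays for 4 members and wholly below for 6, where 26.3% of all genes had groups apart in either direction. Nearest short of the threshold here were Mrps18b (-0.41, adjusted p = 0.0764 by limma), Mrps7 (-0.52, 0.0823) and Mrpl42 (0.45, 0.109). Mrps18b passed with median scaling and with quantile normalization. Mrps7 passed without resolution 2 and with control 4, acute 1 and resolution 2 left out together. No member passed in both resolution comparisons, which share the resolution arrays. Altogether 10 members passed in at least 1 comparison and 64 in none.

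Mrps35 encodes a protein of the small subunit specific to mitochondria. It read 7.19, 6.77, 6.87 and 6.48 in control, 6.56, 6.62 and 6.84 in acute, and 7.20, 7.82, 7.29 and 7.08 in resolution. The resolution arrays were above all acute arrays, and the lowest of them overlapped the controls. Resolution exceeded acute by 0.68 ± 0.20 (SE, n = 4 and 3) with a limma adjusted p of 0.0372. The call was lost in 8 of 22 alternatives. These were median scaling, quantile normalization, any 1 acute array left out, resolution 2 or 3 left out, and control 4, acute 1 and resolution 2 left out together.

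Mrps22 read 6.71, 6.86, 6.92 and 6.72 in resolution, against the acute values given above, 1 of which was under background. The resolution arrays overlapped the controls, and the 3 acute arrays were below all 4 resolution arrays. The difference of 0.58 ± 0.17 had a limma adjusted p of 0.0406. It was lost in 13 of 22 alternatives, among them those without control 1 or without any 1 acute or resolution array.

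Mrpl1 encodes the counterpart of bacterial L1, the protein of the mobile stalk beside the exit site. It read 9.61, 9.64, 9.29 and 9.31 in control, 9.74, 9.57 and 9.68 in acute, and 9.40, 8.87, 9.05 and 8.86 in resolution. The acute arrays were above all resolution arrays, and resolution 1 lay among the controls. Resolution differed from acute by -0.62 ± 0.16, 1.53-fold lower, with a limma adjusted p of 0.0188, and the call was lost without acute 1 or acute 3.

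Mrpl32 read 8.64, 9.13, 8.72 and 8.69 in resolution, so that the highest resolution array, resolution 2, came close to the lowest acute array. Resolution differed from acute by -0.53 ± 0.14, 1.45-fold lower, with a limma adjusted p of 0.0221. The call was lost without acute 1 or 2 or without resolution 1, 3 or 4. Psma2, which starts head to head with it, differed by -0.31 (adjusted p = 0.0712). Among the 18 head-to-head pairs with both genes tested, 2 members and no neighbours passed in resolution against control, where 18.6% of all genes did. Against acute, 1 member and no neighbours passed, where 14.5% of all genes did.

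By structural class, 6.67% to 10.5% of genes passed in resolution against control and 0% to 20% in resolution against acute, where 18.6% and 14.5% of all genes did. Of 29 tested large subunit genes with a bacterial counterpart, 1 rose and 1 fell in resolution against control and 2 fell in resolution against acute. Of 19 large subunit genes specific to mitochondria, 2 rose in resolution against control and none passed against acute. Of 15 small subunit genes with a bacterial counterpart, 1 rose against control and none passed against acute. Of 10 small subunit genes specific to mitochondria, 1 fell against control and 2 rose against acute. The 1 that fell was Mrps18b, which was placed in this class although it is a relative of bacterial S18. Median differences over these classes ran from 0.06 to 0.11 in acute against control, from -0.00 to 0.15 in resolution against control and from -0.05 to 0.04 in resolution against acute.

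Several members are known for other roles. Mrpl12, whose protein also binds the mitochondrial RNA polymerase, had the widest spread of all members, a pooled SD of 0.48. It read 9.26, 10.02, 9.27 and 8.22 in resolution, a range that covered all other arrays, and its acute difference of 0.27 ± 0.31 had a limma adjusted p of 0.845. Mrpl58, the peptidyl-tRNA hydrolase built into the large subunit, differed by 0.37 ± 0.13 between resolution and control (limma adjusted p = 0.0622). Mrps30, whose protein lies in the large subunit despite its name, differed by 0.11 ± 0.16 in acute (0.883). Mrps36, now known as a subunit of the 2-oxoglutarate dehydrogenase complex, differed by -0.10 ± 0.18 between resolution and acute (0.778).

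Of 5 further subunits listed under other names, 4 were tested, and none passed in any comparison. Gadd45gip1, a large subunit protein, read 6.84 to 7.08 in control and 7.29, 7.32 and 7.26 in acute, with no overlap and a difference of 0.33 ± 0.14 (limma adjusted p = 0.495). Ptcd3, a small subunit protein with pentatricopeptide repeats, read 7.87, 8.05, 8.09 and 8.04 in control and 7.67, 7.74 and 7.64 in acute, again with no overlap, and differed by -0.33 ± 0.12 (0.422). The GTP-binding protein Dap3 differed by -0.20 between resolution and acute (0.649), and Chchd1 by 0.17 between resolution and control (0.419).

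The members' levels moved together from array to array inside each group. Control 4 was the highest of the control arrays for 43 of the 74 members (58.1%), against 26.3% of all genes tested. Acute 1 was the lowest acute array for 56 members (75.7% against 42.4%). Resolution 2 was the highest resolution array for 50 members (67.6% against 32.8%), and resolution 4 the lowest for 37 (50% against 27.9%).

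Averaged over the 74 members, the log2 level was 9.93, 9.99, 9.84 and 10.06 on the control arrays. It was 9.88, 10.09 and 10.10 on the acute arrays and 9.93, 10.27, 10.00 and 9.85 on the resolution arrays. Group means were 9.95 ± 0.09, 10.02 ± 0.13 and 10.01 ± 0.18 (SD, n = 4, 3 and 4), so the groups overlapped, and the differences between them were smaller than the spread among arrays. Over all genes tested the array means ran only from 8.74 to 8.80. The arrays that stood apart on red cell and neutrophil markers, acute 1 and control 4, were among those with the members shifted, and acute 1 also had the highest summed intensity of epithelial markers (37808). Resolution 2 and resolution 4, where the members were shifted too, summed to 196 and 157 for red cell markers, within 142 to 307 for that group. Their neutrophil markers summed to 2509 and 1844. A link of these markers to the shifts was not tested. The lists of 56 cytosolic ribosomal protein genes and 82 tested respiratory chain genes had their highest control and resolution array in the same place, at 15.13 and 13.18 on control 4 and at 15.32 and 13.40 on resolution 2. The SD within groups for a single gene had a median of 0.23 for members and for all genes alike.

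**Figure D4:**
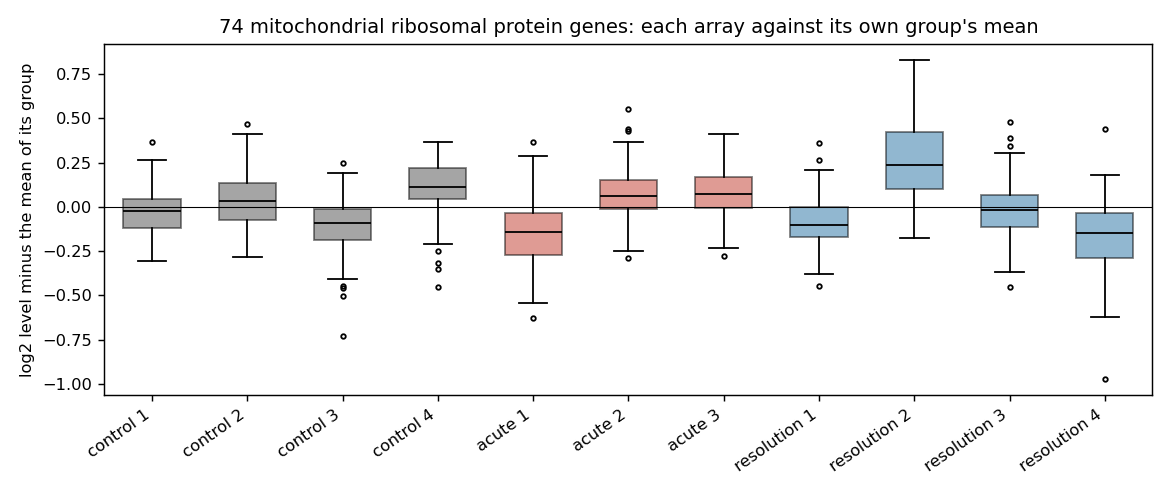
Level of each of the 74 tested members on each array minus its own group's mean (log2), as boxes with the median, quartiles and whiskers to 1.5 times the interquartile range. The boxes of control 4 and resolution 2 lie above 0 and those of acute 1 and resolution 4 below it, so the members shifted together within groups.

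Genes that serve the mitochondrial ribosome were given by function, in lists that were chosen with earlier results of these data known. In acute against control none of the genes on the 7 lists passed. In resolution against control the share past the threshold ran from 7.69% to 25% over the lists, around the 18.6% of all genes. In resolution against acute it ran from 0% to 17.6%, against 14.5% of all genes. Among 14 translation factors, Tufm (elongation factor Tu) rose by 0.36 ± 0.11 in resolution against control (limma adjusted p = 0.0391). The elongation factor gene Gfm1 fell (-0.50 ± 0.14, adjusted p = 0.0232), as did Gfm2, whose protein recycles ribosomes (-0.43 ± 0.13, 0.0428). The median of that list was -0.09, and none passed in resolution against acute.

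Among 17 tested genes of mitochondrial aminoacyl-tRNA synthesis, 2 rose and 2 fell in resolution against control. Mars2, the methionyl-tRNA synthetase, read 5.92, 6.03, 5.84 and 6.29 in control, 6.55, 6.16 and 5.92 in acute, and between 6.79 and 7.27 in resolution. Only 1 of 4 control and 1 of 3 acute arrays were above background, against all 4 resolution arrays, so the size of the difference is uncertain. Its limma adjusted p against control was 0.000769. Gatc, of the glutamyl-tRNA amidotransferase, differed by 0.51 (0.0387), and its partner Qrsl1 by -0.55 (0.0477). Hars2, above background on 1 of 4 resolution arrays, was lower there than in control (limma adjusted p = 0.018) and in acute (0.0152).

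Among 26 tested genes of mitoribosome assembly and ribosomal RNA modification, 2 rose in resolution against control. Ddx28, an RNA helicase of large subunit assembly, read 8.79, 8.51, 8.63 and 8.77 in control, 8.67, 9.14 and 9.09 in acute, and 9.24, 9.75, 9.26 and 9.48 in resolution. Every resolution array was above every other array, and the difference from control was 0.76 ± 0.15, or 1.69-fold (limma adjusted p = 0.00339). Nsun4, the methyltransferase of the small ribosomal RNA, differed by 0.59 ± 0.14 (0.0105), with 2 of 4 control arrays above background. In resolution against acute the only gene past the threshold was Ngrn (adjusted p = 0.0135), which was below background on all 11 arrays, so no fold is given. The list's median difference was 0.06.

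Among 17 tested genes of mitochondrial DNA upkeep and transcription, 2 rose and 2 fell in resolution against control. Polg2, the accessory subunit of the mitochondrial DNA polymerase, read 5.91, 5.17, 5.72 and 5.92 in control, all under background. It read 6.21, 5.85 and 6.25 in acute and 6.62, 7.04, 6.91 and 6.64 in resolution. Resolution was at least 1.56-fold higher than control, set against each control array's background, and the fitted difference had a limma adjusted p of 0.00087. Hsd17b10, a subunit of mitochondrial RNase P, differed by 0.39 (0.0265).

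Tefm, the elongation factor of mitochondrial transcription, read 9.72, 9.55, 9.58 and 10.14 in control, 9.48, 9.58 and 10.28 in acute, and 8.73, 8.81, 8.73 and 8.73 in resolution. The resolution arrays were nearly equal and lay far below all others. Resolution was 1.99-fold lower than control (limma adjusted p = 0.00199), and its log2 difference from acute was -1.03 ± 0.19 (0.00375). Mgme1, a mitochondrial exonuclease, was lower in resolution than in control (-0.84, limma adjusted p = 0.00392), and the helicase gene Supv3l1 lower than in acute (-0.83, 0.009).

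Among 10 tested regulators, 2 fell in resolution against control, and the genes of GABP and NRF1, whose words are shown above, were measured too. Gabpb1, the beta subunit of GABP, read 7.74, 7.54, 7.34 and 7.67 in control, 7.33, 7.03 and 7.11 in acute, and 6.88, 6.31, 7.18 and 6.94 in resolution. All resolution arrays were below all control arrays, and the difference was -0.74 ± 0.17 (limma adjusted p = 0.00981). Gabpa, the DNA-binding subunit, differed by -0.30 (0.105) and Nrf1 by 0.04 (0.887), a sign that 4 of 22 alternatives turned. Myc fell in resolution against control (-0.93 ± 0.29, limma adjusted p = 0.0409), a call lost in 10 of 22 alternatives, without control 2, 3 or 4, any 1 acute array, or resolution 1 or 4. Ppargc1a, a coactivator of mitochondrial biogenesis, was below background on all 11 arrays.

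Among 20 genes of protein import and matrix chaperones, 2 fell in resolution against control. They were Hspa9, the mitochondrial Hsp70 (-0.41, limma adjusted p = 0.0197), and Timm17a of the inner membrane translocase (-0.39, 0.0482). The list's median was -0.18. Of 8 genes for the insertion of mitochondrial translation products, Tmem177 fell (-0.79, adjusted p = 0.00849) and Cox20 rose by 0.36 (0.0478). Of 82 tested nuclear genes for subunits of the respiratory chain and ATP synthase, 1 rose in resolution against control, with a median of 0.07. Of 56 cytosolic ribosomal protein genes, 1 rose, with a median of 0.06.

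Many of these calls also depended on single arrays. Gfm1 lost the threshold against control in 6 of 22 alternatives (among them those without control 2 or 4 or resolution 1 or 4). Hars2 lost it without resolution 3, or against acute without acute 1. Hspa9 lost it against control in 2 (among them that without control 1), and Hsd17b10 in 6 (among them those without control 1 or 3 or resolution 1 or 3). Tufm lost it in 12 of 22 alternatives (among them those without control 1, 2 or 3, acute 3, or resolution 1, 2 or 4). Gfm2 lost it in 11 (any 1 control array, acute 2, or resolution 1, 3 or 4) and Gatc in 10 (control 1, 2 or 3, acute 3, or resolution 2, 3 or 4). Qrsl1 lost it in 13 (control 1 or 2, any 1 acute array, or resolution 1, 2 or 4), Timm17a in 13 (control 1, 2 or 4, any 1 acute array, or resolution 1 or 4) and Cox20 in 16 (control 1, 2 or 4, or any 1 acute or resolution array). Mars2, Ddx28, Nsun4, Polg2, Tefm, Mgme1, Gabpb1 and Tmem177 kept theirs against control in all 22.

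**Figure D5:**
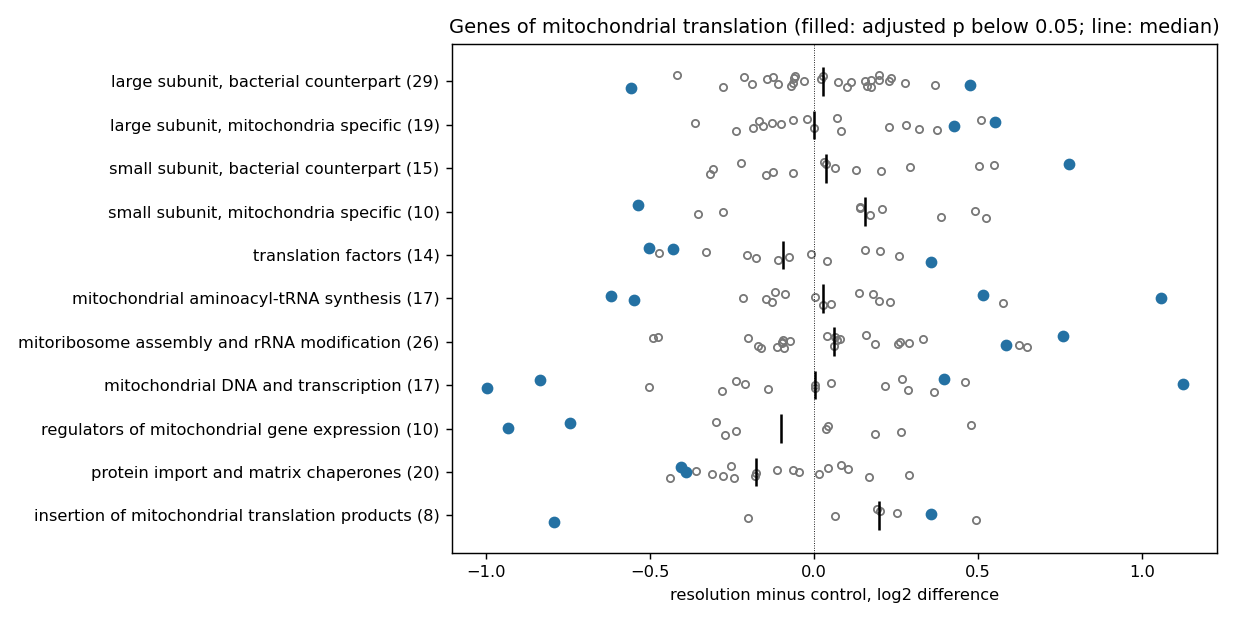
log2 difference of resolution from control for each tested gene of mitochondrial translation, by list (number tested in brackets), with filled points for an adjusted p below 0.05 and a line at each list's median. The subunit lists at the top lie within -0.56 and 0.78, and points beyond 0.9 in either direction appear in the lists of tRNA synthesis, mitochondrial DNA and transcription, and regulators.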

How the data were processed

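RNA of 11 lavage samples was labelled with a 3′ IVT Pico kit and hybridised to Affymetrix arrays, per the labels' protocols. The deposited table holds linear intensities for 28846 probe sets, made by the authors with Affymetrix Expression Console, per the submitters' processing notes; the sources used here do not give its version, algorithm or build. Of these, 19572 had 1 gene symbol in the platform annotation, 31 were controls and 9243 were unnamed. For symbols with several clusters the brightest was used. Intensities were taken as log2(value + 1), and no further scaling was applied. No background was subtracted here, so a fold change of a dim gene may be understated. Genes were kept where at least 3 arrays passed the table's 40th percentile (12143 genes). All 3 groups were fitted together with lmFit and eBayes (limma 3.58.1, R 4.3.3), and p-values were adjusted by Benjamini-Hochberg over all genes tested. Errors of differences are the fit's standard errors. The number of arrays limits the precision. The fit was first run on simulated data with known changes. Noise there was drawn independently for each probe set, so that run did not cover shifts shared by many genes of an array.

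The members and lists were chosen with earlier results of these data known. Values are given for members past the threshold, for 6 members with other known roles or a paralogue, for the nearest members short of it, and for the other mitoribosomal genes. From each list the genes past the threshold with the largest absolute differences were named, and Mrps17 and some list genes were added after their values were seen. Promoters are RefSeq's, build GRCm38.p6, and the build behind the array's annotation was not stated. Replicate numbers were not used to pair the arrays. Same-numbered arrays of different groups deviated with correlations of -0.12 to 0.087 over 10 pairs, none above 0.1. The 30 pairs with different numbers ran from -0.14 to 0.20, with 4 above 0.1. With so few arrays this shows no sign of pairing but cannot exclude it. The 22 alternatives changed the filter, pseudocount, scaling, model or arrays used.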

Additional observations from a re-analysis of the deposited data

Results flagged for a closer look

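An array far from the others of its group was found for 8 of 110 groups of 4 arrays, and chance marks about 1 in 20. Resolution 2 read 9.13 for Mrpl32, where the next array was at 8.72, and 12.93 for Mrps12, where the next was at 11.92. It also read 8.81 for Tefm, where the others were at 8.73, and 12.78 for Fau, where the next was at 12.61. Control 3 read 14.25 for Mrpl33, where the others were at 14.22, and 8.72 for Supv3l1, where the next was at 9.20. Control 4 read 6.45 for Sars2, where the next was at 6.22, and 5.43 for Ngrn, an assembly factor below background on every array, where the next was at 5.70.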

How the results depend on the processing

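Over 22 alternatives, 64 of 68 differences of named genes kept their direction. The exceptions were Mrps18c between resolution and control (-0.042 without resolution replicate 2 to 0.131 without resolution replicate 4, and -0.018 with 3 arrays left out together), Nrf1 between resolution and control (-0.088 to 0.132 with 1 replicate left out, -0.0085 with median scaling, -0.052 with those 3 arrays left out), Sars2 in the same comparison (0.013 with those arrays left out) and Mrps36 between resolution and acute (-0.284 without acute replicate 1 to 0.069 without acute replicate 3). In acute against control no member passed in any alternative, and the median difference ran from 0.02 to 0.17 with 1 array left out and was 0.207 with those 3 arrays left out. Of all genes, 0.0415% to 0.241% passed there with 1 array left out. In resolution against control the 4 members higher became 0 to 6 and the 2 lower became 1 to 3 with 1 array left out, and the median ran from -0.02 (without resolution 2) to 0.12. Of all genes, 15.2% to 18.7% passed in either direction with 1 array left out. In resolution against acute the counts ran from 0 to 2 higher and 0 to 3 lower with 1 array left out, where 8.84% to 15.3% of all genes passed. The medians then ran from -0.09 to 0.07, and the median was -0.141 with quantile normalization and -0.153 with those 3 arrays left out. The number higher in resolution against control was 2 with no filter, 8 with the filter at the antigenomic background, 0 with median scaling, 2 with only these groups in the fit, and 2 with control 4, acute 1 and resolution 2 left out together, a choice made after seeing the data. The number lower was 4 with quantile normalization and 1 with those arrays left out. In resolution against acute, the number higher was 1 with no filter, 0 with median scaling, 0 with quantile normalization and 0 with those arrays left out, and the number lower was 4 with quantile normalization and 4 with those arrays left out. With the replicate number as a block, 1 member was lower in resolution against control and 1 higher in resolution against acute, although the numbers showed no sign of pairing. For settings other than 1 array left out, the share of all genes past the threshold is not given beside these counts, here or above. The calls rest on 3 or 4 arrays a group and on differences under 2-fold.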
